A study of Homo sapiens with 16 samples.

Results

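The genes described here are 50 genes that drive or mark the G2 phase and mitosis of the cell division cycle, from the cyclins that start mitosis to the factors that separate the daughter cells. They were taken by symbol from a fixed list, and all 50 were present once in each of 4 tables of comparisons that the authors deposited, among 23396 genes found in any table. The rule itself used no measured value, but the genes were chosen with earlier results of these data known. All 50 had an adjusted p in every table, so none was lost to the authors' filter on low counts.

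The samples were 16 poly(A) RNA-seq libraries of U2OS, an established human osteosarcoma cell line, in 4 groups of 4. Cells were transfected with siControl, a control siRNA, or with siRFX7, one that targets RFX7, a transcription factor. Each kind then received 10 µM Nutlin-3a, or its solvent DMSO, for 24 h. The groups are called siControl with DMSO, siControl with Nutlin-3a, siRFX7 with DMSO and siRFX7 with Nutlin-3a. All groups thus carried a siRNA and a solvent or compound, and no group of untreated cells was used here. Whether the libraries of a group came from separate cultures was not given in the sources used here, so the p-values measure only the spread between these libraries, which may be technical.

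Nutlin-3a keeps MDM2 from binding p53, so that p53 accumulates and induces its targets, among them CDKN1A, the gene of the CDK inhibitor p21. When cyclin-dependent kinases are inhibited, RB-family proteins stay bound to E2F factors, and the DREAM complex represses genes needed for mitosis. Many mitotic genes are expressed in G2 and M only, and a short promoter element called the cell cycle genes homology region (CHR) is known to take part in that timing. In cells that divide freely these genes are therefore highly expressed as a group, and they are among the genes known to fall when p53 is activated.

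The deposited tables hold no value of a single library. Each gives, per gene, the base mean (normalised reads of the gene, averaged over the 8 libraries compared), the log2 fold change, its standard error (SE) and an adjusted p. A gene is called here at an adjusted p under 0.05. Group means were derived from the base mean and the fold change, which is possible because each group had 4 libraries. Levels are normalised read counts put on 1 scale, that of the table for Nutlin-3a in siControl. For a group shared by a pair of tables, the levels of the 50 genes differed between tables by at most 0.0087 on the log2 scale.

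Across the series, the base means of a table summed to between 27946376 and 35311111 normalised counts. In the authors' deposited tables, the log2 fold change of RFX7 with its siRNA was -2.42 ± 0.065 (SE) under DMSO and -2.37 ± 0.066 with Nutlin-3a. By the authors' deposited tables, CDKN1A rose 3.24 ± 0.040 on addition of Nutlin-3a to siControl cells and 2.98 ± 0.035 in siRFX7 cells, and stood higher in siRFX7 at both treatments (0.60 ± 0.040 for DMSO, 0.33 ± 0.037 for Nutlin-3a). The bone and mesenchymal markers RUNX2, VIM, COL1A1, SPARC and ALPL were present in the authors' deposited tables. Of 5 blood markers, 2 were listed in 1 table, with a summed base mean of 8.60, and of 4 endothelial markers up to 3 were listed, summing to at most 27.4 in the authors' deposited tables. Of 5 epithelial markers, KRT19 and KRT5 were in none of the authors' deposited tables, while KRT18 had a base mean of 12140.3 in the table for siControl. The other listed epithelial markers, EPCAM and CDH1, were called higher with siRFX7 at both treatments, by 0.54 and 0.85 with DMSO in the authors' deposited table. The summed base mean of the list ran from 9912 to 12452 over the authors' deposited tables, and its part in the results below was not tested.

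The 50 genes were expressed over a wide range. Per kilobase of exon in GENCODE 29, their level in siControl with DMSO had a median of 1339 normalised counts, from 49.2 for PRC1 to 7038 for CKS2, a small subunit of cyclin-dependent kinase complexes. CKS2, TPX2 (6766), which nucleates spindle microtubules, and CDC20 (5585), the co-activator of the anaphase-promoting complex (APC/C), stood highest per kilobase. The median was 725 in siControl with Nutlin-3a, 1450.2 in siRFX7 with DMSO and 700.5 in siRFX7 with Nutlin-3a.

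PRC1, which bundles microtubules of the central spindle, has 57.6% of its exon bases inside a second GENCODE 29 gene on the same strand, AC068831.7. In the authors' deposited tables AC068831.7 had a base mean of 207 for Nutlin-3a in siControl, close to the 206 of PRC1, and its log2 fold change there was -0.88. How reads in shared exons were assigned is not given in the sources used here, so the level of PRC1 is uncertain. For NUSAP1, 62.2% of exon bases lie inside AC087721.2, and for BUB1B 10.2% lie inside BUB1B-PAK6. GENCODE 29 names pseudogenes after 13 of the 50 genes, CKS1B with 6, UBE2C with 4 and UBE2S with 2 among them, and reads of near-identical copies could be split there.

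**Figure D1:**
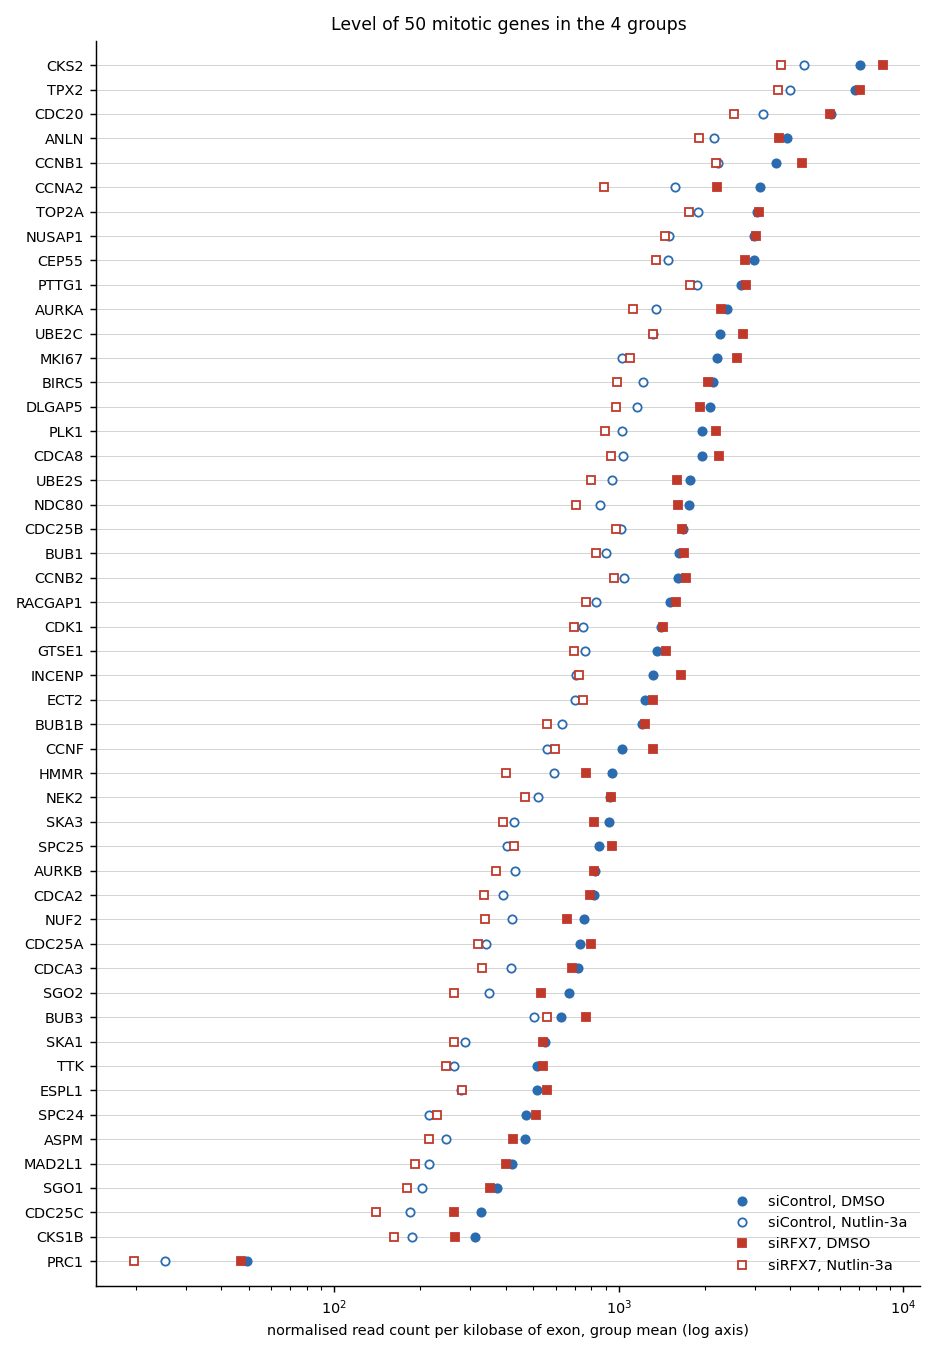
Group means of the 50 mitotic genes in normalised read counts per kilobase of exon, on a log axis. Circles are siControl and squares siRFX7, filled for DMSO and open for Nutlin-3a; the open symbols lie left of the filled ones for all 50 genes, and PRC1 lies lowest, at 49.2 in siControl with DMSO.

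The first comparison asked how the genes respond to p53 activation when RFX7 is present. All 50 fell in siControl on Nutlin-3a in the authors' deposited table, where 19.6% of all genes tested were called lower and 18.3% higher. The median log2 fold change of the 50 was -0.88 in the authors' deposited table, against 0.010 over all genes. A base mean of 1000 was reached by 46 of the 50, and of 7050 genes that reached it, 41.1% were called lower in the authors' deposited table. The falls ran from -0.31 to -1.14, and 8 of the 50 fell by at least 1, or to no more than 50% of the DMSO level, against 0.719% of all genes in the authors' deposited table. In bulk RNA, fewer cells in G2 and mitosis and less of these RNAs per cell cannot be told apart.

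Subunits of the outer kinetochore, which ties chromosomes to spindle microtubules, had the lowest median of the 12 roles, -1.05 over 6 genes in the authors' deposited table. SPC24, a subunit of the NDC80 complex, went from a level of 1342 to 608, a log2 fold change of -1.14 ± 0.057 (SE; adjusted p 8.28e-89) in the authors' deposited table. Its partners in the complex were at -1.07 ± 0.059 (SPC25), -1.03 ± 0.039 (NDC80) and -0.84 ± 0.052 (NUF2) in the authors' deposited table. SKA3 and SKA1, of the complex that holds kinetochores on moving microtubule ends, were at -1.11 ± 0.051 and -0.92 ± 0.064 in the authors' deposited table. NUF2 thus kept 56.0% and SPC24 45.3% of the DMSO level in the authors' deposited table.

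Other large falls were spread over roles. MKI67, whose protein coats mitotic chromosomes and is the Ki-67 proliferation marker, went from 28369 to 13179.8, a log2 fold change of -1.11 ± 0.062 in the authors' deposited table. CDC25A, a phosphatase that activates cyclin-dependent kinases, was at -1.09 ± 0.046, against -0.72 ± 0.043 for CDC25B and -0.83 ± 0.061 for CDC25C, in the authors' deposited table. CDCA2, which brings protein phosphatase 1 to chromosomes, was at -1.05 ± 0.045 and CEP55, needed for the last cut between daughter cells, at -1.001 ± 0.043 in the authors' deposited table. SGO1 and SGO2, which protect the cohesin at centromeres, were at -0.88 ± 0.060 and -0.94 ± 0.048 in the authors' deposited table.

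The 7 cyclins, CDK1 and CKS subunits had the median nearest 0 of the 12 roles, -0.74 in the authors' deposited table. CCNA2, the cyclin of S phase and G2, went from 8778 to 4389, the largest fall of the 7. The mitotic cyclins CCNB1 and CCNB2 fell to 62.6% and 64.6% in the authors' deposited table. CDK1, their kinase, was at -0.91 ± 0.057, CCNF at -0.88 ± 0.038 and CKS1B at -0.74 ± 0.080 in the authors' deposited table. The smallest falls of all 50 were those of BUB3 (-0.31 ± 0.044), PTTG1 (-0.50 ± 0.050), CCNB2 (-0.63 ± 0.038) and CKS2 (-0.66 ± 0.040) in the authors' deposited table. BUB3 is a checkpoint protein that is also needed outside mitosis, and PTTG1 is securin, the inhibitor of separase. BUB3 kept 80.4% of its DMSO level, while the other checkpoint genes BUB1, BUB1B, TTK and MAD2L1 kept 55.5%, 52.3%, 51.2% and 51.1% in the authors' deposited table.

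The kinases PLK1, AURKA and NEK2 were at -0.94 ± 0.045, -0.83 ± 0.044 and -0.84 ± 0.048 in the authors' deposited table. The chromosomal passenger genes AURKB, BIRC5, INCENP and CDCA8 lay between -0.93 and -0.81 in the authors' deposited table. Of the genes for spindle assembly, NUSAP1, which bundles microtubules at chromosomes, was lowest at -0.996 ± 0.041, and HMMR, a spindle protein that also binds hyaluronan, highest at -0.68 ± 0.056 in the authors' deposited table. TPX2, ASPM, which focuses the spindle poles, DLGAP5, which stabilises kinetochore fibres, and GTSE1 lay between them. Of the genes for cytokinesis, ANLN, a scaffold of the contractile ring, was at -0.86 ± 0.043, RACGAP1 at -0.86 ± 0.039 and ECT2 at -0.81 ± 0.043 in the authors' deposited table. TOP2A, the topoisomerase that untangles sister chromosomes, was at -0.68 ± 0.038 in the authors' deposited table, well short of MKI67.

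UBE2S, the E2 enzyme that extends ubiquitin chains on APC/C substrates, had the widest error in that comparison, at -0.91 ± 0.12 in the authors' deposited table, where the median SE of the 50 was 0.045. In siRFX7 its SE was 0.057 in the authors' deposited table. For MKI67 the authors' deposited tables gave the reverse, an SE of 0.062 for siControl and 0.14 for siRFX7.

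**Figure D2:**
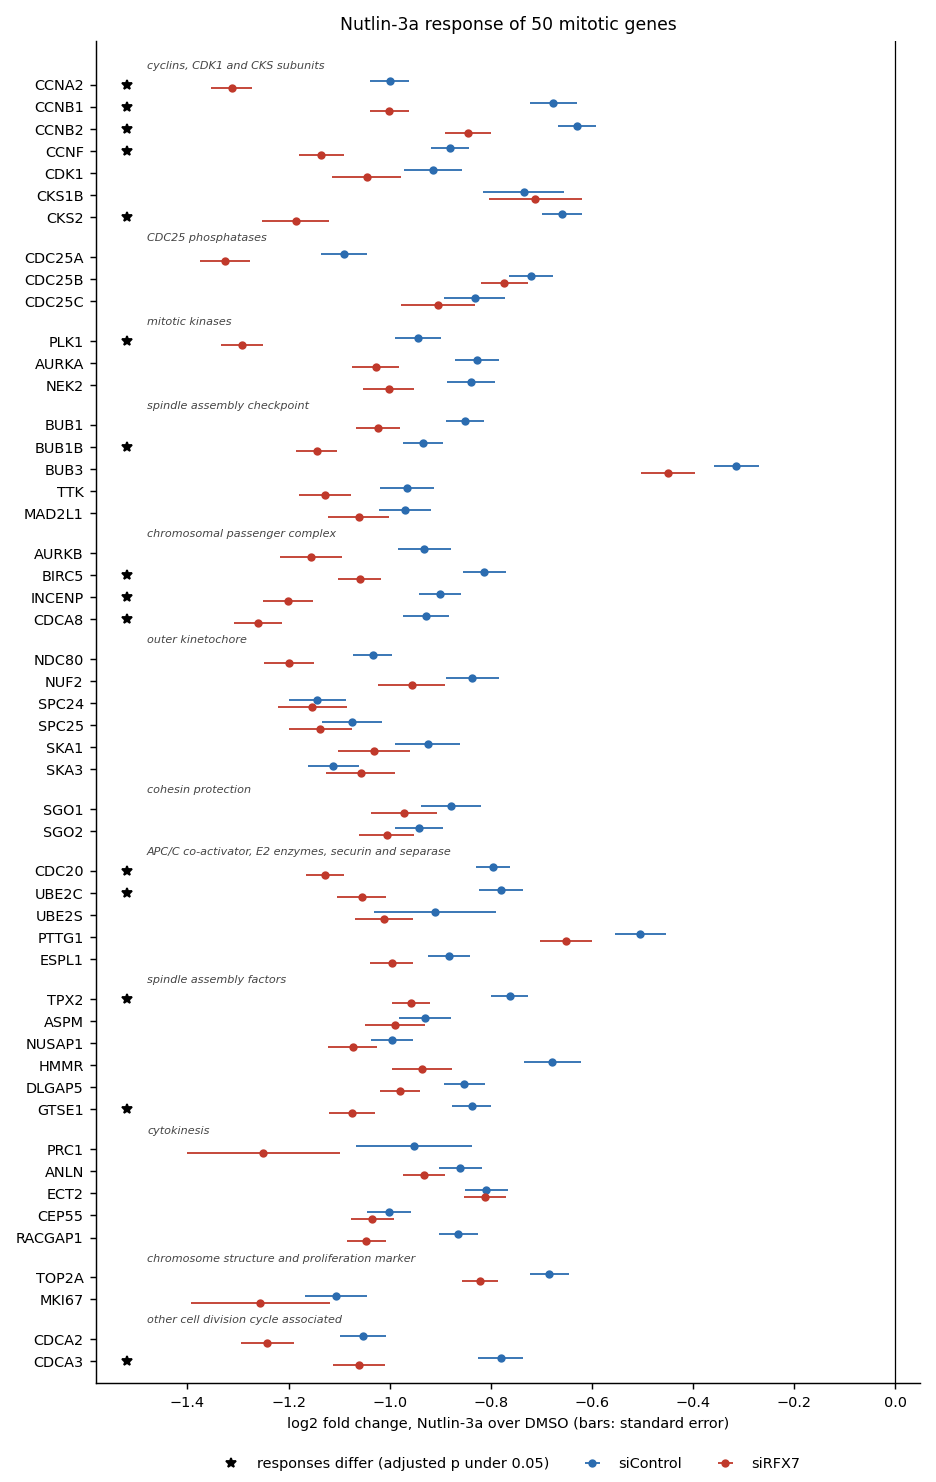
Log2 fold change of each of the 50 genes with Nutlin-3a over DMSO in siControl (blue) and siRFX7 (red), grouped by role; bars are the authors' standard errors, and stars mark the 15 genes whose responses differed. All points lie below 0, and the red points lie left of the blue ones for 48 of 50 genes, SKA3 and CKS1B being the others.

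In siRFX7, all 50 genes again fell on Nutlin-3a by the authors' deposited table, where 20.3% of all genes were called lower and 18.7% higher. Their median there was -1.05, and 34 of 50 fell by at least 1, against 1.25% of all genes in the authors' deposited table. The largest falls in siRFX7 were those of CDC25A (-1.33 ± 0.050), CCNA2 (-1.31 ± 0.040), PLK1 (-1.29 ± 0.041) and CDCA8 (-1.26 ± 0.047) in the authors' deposited table. The smallest were those of BUB3 (-0.45 ± 0.053), PTTG1 (-0.65 ± 0.051), CKS1B (-0.71 ± 0.092) and CDC25B (-0.77 ± 0.046) in the authors' deposited table. BUB3 and PTTG1 were thus the least reduced under both siRNAs, in tables that share no library. Over the 50 genes, the responses in the pair of tables had a Pearson correlation of 0.767, given as a description.

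The responses under both siRNAs were then compared directly, as siRFX7 minus siControl, with an SE from both tables and p-values adjusted over 21339 genes. The difference was below 0 for 48 of the 50 genes, a stronger fall in siRFX7, and it passed the test for 15 of them. The share of all genes called with a lower response was 0.764%, and among 6554 genes whose mean base mean reached 1000 it was 1.75%. Earlier results of these data, known when the genes were chosen, had already shown the differences of PLK1, CDC20, CCNB1, CCNA2, BIRC5 and CCNB2. The contrast with these shares is therefore not independent evidence. At an unadjusted p under 0.05, 28 of the 50 genes differed, all with a lower response in siRFX7, against 6.32% of all genes in either direction. That share covers genes of every base mean, and it was not taken among those whose mean base mean reached 1000. The median difference of the 50 was -0.16, against -0.00055 over all genes, and none of the 50 was called with a higher response. When each statistic was divided by the robust SD of genes at similar base mean, 7 of the 15 remained called: CCNA2, CCNB1, CKS2, PLK1, INCENP, CDCA8 and CDC20.

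**Figure D3:**
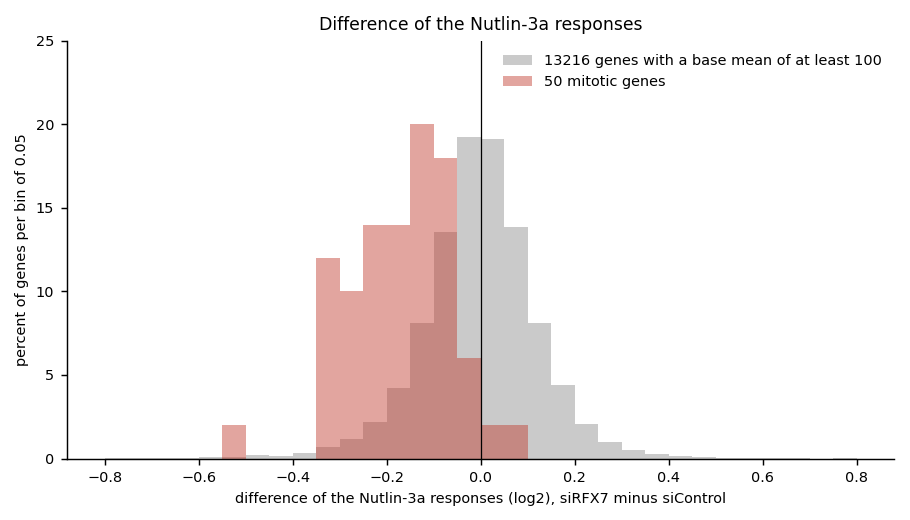
Distribution of the difference of the Nutlin-3a responses (siRFX7 minus siControl, log2), as percent of genes per bin, for the 50 mitotic genes (red) and for 13216 genes whose mean base mean is 100 or more (grey). The red bars lie almost wholly below 0, with CKS2 alone in the lowest filled red bin; 0.113% of the grey genes lie outside the axis.

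CKS2 (ENSG00000123975, chromosome 9, 89311198 to 89316703, GENCODE 29 on GRCh38) had the largest difference. Its level was 4314 in siControl with DMSO, 2733 in siControl with Nutlin-3a, 5195 in siRFX7 with DMSO and 2283 in siRFX7 with Nutlin-3a. The siRFX7 group stood above siControl with DMSO and below it with Nutlin-3a, and by the authors' deposited tables the log2 fold change was -0.66 for siControl and -1.19 for siRFX7. The difference was -0.53 ± 0.077 (SE; adjusted p 1.55e-08). CKS1B, its close relative and the partner of the SKP2 ubiquitin ligase, had a difference of 0.023 ± 0.12 (95% interval -0.22 to 0.26), from a level of 732 in siControl with DMSO.

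Both B-type cyclins were among the called genes. For CCNB1 (ENSG00000134057, chromosome 5, 69167010 to 69178245) the level was 9122 in siControl with DMSO, 5709 in siControl with Nutlin-3a, 11263 in siRFX7 with DMSO and 5629 in siRFX7 with Nutlin-3a. The siRFX7 level was the higher with DMSO, while with Nutlin-3a the levels were within the error, and the difference of the responses was -0.32 ± 0.060 (adjusted p 2.72e-05). CCNB2 differed by -0.22 ± 0.060 (adjusted p 0.0351) and CCNF, the substrate receptor of an SCF ubiquitin ligase, by -0.25 ± 0.059 (adjusted p 0.00304). CDK1 itself had a difference of -0.13 ± 0.089, whose 95% interval was -0.31 to 0.043.

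PLK1, the kinase that drives mitotic entry and spindle assembly (ENSG00000166851, chromosome 16, 23677656 to 23690367), had levels of 9354 in siControl with DMSO, 4862 in siControl with Nutlin-3a, 10428 in siRFX7 with DMSO and 4258 in siRFX7 with Nutlin-3a. It differed by -0.35 ± 0.061 (adjusted p 7.05e-06). The kinases AURKA and NEK2, which act at the spindle poles, had differences of -0.20 ± 0.064 and -0.16 ± 0.070 that did not pass (adjusted p 0.135 and 0.539).

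Of all genes, 0.764% were called with a lower response. In the chromosomal passenger complex, which corrects faulty attachments and marks the cleavage site, 3 of 4 genes were called. They were CDCA8, the borealin subunit (-0.33 ± 0.066, adjusted p 0.000176), INCENP, the scaffold (-0.30 ± 0.064, adjusted p 0.000957), and BIRC5, survivin (-0.25 ± 0.060, adjusted p 0.00796). AURKB, the kinase of the complex, had a difference of -0.22 ± 0.081 that did not pass (adjusted p 0.278), so the sizes in the complex lay between -0.33 and -0.22.

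CDC20 (ENSG00000117399, chromosome 1, 43358955 to 43363203) had levels of 11383 in siControl with DMSO, 6559 in siControl with Nutlin-3a, 11291 in siRFX7 with DMSO and 5166 in siRFX7 with Nutlin-3a. With DMSO the siRNA groups were within the error of each other, and with Nutlin-3a siRFX7 was the lower. The difference of the responses was -0.33 ± 0.051 (adjusted p 1.18e-07). UBE2C, the E2 enzyme that starts ubiquitin chains for the APC/C, differed by -0.28 ± 0.065 (adjusted p 0.00471). UBE2S, PTTG1 and ESPL1, the gene of separase, had differences of -0.10 ± 0.13, -0.15 ± 0.071 and -0.11 ± 0.061, none of which passed.

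Of the remaining called genes, CDCA3, linked to the ubiquitin-dependent entry into mitosis, differed by -0.28 ± 0.068 (adjusted p 0.00716), and GTSE1, a microtubule protein that also binds p53, by -0.24 ± 0.060 (adjusted p 0.0122). BUB1B, the checkpoint protein BUBR1, differed by -0.21 ± 0.057 (adjusted p 0.0264) and TPX2 by -0.20 ± 0.052 (adjusted p 0.0236). CCNA2, the 15th, is described with the siRNA effects below. CDC25A was just outside the threshold, at -0.24 ± 0.068 (adjusted p 0.0575), as was RACGAP1, a subunit of the centralspindlin complex, at -0.18 ± 0.055 (adjusted p 0.077).

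No gene of the outer kinetochore, of cytokinesis or of the cohesin protectors was called. In the outer kinetochore the differences lay between -0.17 (NDC80) and 0.054 (SKA3), and the 95% interval of SPC24 was -0.18 to 0.16. For ECT2, which activates RhoA at the cleavage furrow, the 95% interval was -0.12 to 0.11, and for CEP55 it was -0.15 to 0.085. The interval of PRC1 was wide, -0.67 to 0.075, at its low count. Whether the roles differ from each other in this respect was not tested.

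The effect of the siRNA itself was given by siRFX7 over siControl, under each treatment. Under DMSO the 50 genes went both ways in the authors' deposited table: 14 (28%) were called higher, 13 (26%) lower and 23 not called. The shares of all genes called there were 19.9% higher and 17.5% lower, and the median of the 50 was 0.019 in the authors' deposited table. Of genes whose base mean reached 1000, 35.6% were called higher and 20.3% lower with DMSO by the authors' deposited table, so the share of the 50 called higher lay above that of all genes and below that of these. Under Nutlin-3a, 29 of the 50 (58%) were lower, 1 was higher and 20 were not called, against 15.4% and 17.2% of all genes in the authors' deposited table, and the median was -0.14. Of genes whose base mean reached 1000, 19.2% were called lower under Nutlin-3a and 33.5% higher in the authors' deposited table. Over the 50 genes the effects under the 2 treatments, from tables that share no library, had a Pearson correlation of 0.799, given as a description. Most of these effects were small: with a size of at least 0.25 also required, 6 genes were higher and 4 lower under DMSO, and 12 were lower under Nutlin-3a.

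The highest effects under DMSO were those of CCNF (0.35 ± 0.040), INCENP (0.33 ± 0.043), CCNB1 (0.30 ± 0.038) and BUB3 (0.29 ± 0.050) in the authors' deposited table. Under Nutlin-3a the same 4 were at 0.10 ± 0.043, 0.035 ± 0.048, -0.018 ± 0.047 and 0.15 ± 0.048 in the authors' deposited table, where BUB3 alone was called higher. Beside BUB3 and CCNF, the highest under Nutlin-3a were SPC24 (0.10 ± 0.071) and ECT2 (0.096 ± 0.045), neither of them called, in the authors' deposited table. The lowest under DMSO were CCNA2 (-0.51 ± 0.037), SGO2 (-0.34 ± 0.043), CDC25C (-0.31 ± 0.060) and HMMR (-0.30 ± 0.053) in the authors' deposited table. These 4 were also the lowest under Nutlin-3a, at -0.82 ± 0.042, -0.40 ± 0.060, -0.39 ± 0.075 and -0.55 ± 0.063 in the authors' deposited table. CCNA2 stood apart from the other 49 in both comparisons.

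The 15 genes with a called difference of the responses fell into 4 patterns by their siRNA effects, which share libraries with that difference and are given side by side only. CCNB1, CCNF, INCENP and UBE2C were called higher with siRFX7 at DMSO, but not called at Nutlin-3a, by the authors' deposited tables. CCNB2, CKS2, PLK1, CDCA8 and GTSE1 were called higher with DMSO, and lower with Nutlin-3a, by the authors' deposited tables. The effects of CCNB2 were small, by the authors' deposited tables: 0.097 ± 0.041 with DMSO (adjusted p 0.0494) and -0.12 ± 0.043 with Nutlin-3a (adjusted p 0.0214). Those of GTSE1 were 0.11 ± 0.037 (adjusted p 0.0140) and -0.13 ± 0.047 (adjusted p 0.0215) by the authors' deposited tables. BUB1B, BIRC5, CDC20, TPX2 and CDCA3 were not called with DMSO but were lower with Nutlin-3a by the authors' deposited tables. CCNA2 was lower in both. For PLK1 the effects were 0.16 ± 0.046 and -0.19 ± 0.039, for UBE2C 0.27 ± 0.038 and -0.0036 ± 0.054, and for CDC20 -0.012 ± 0.034 and -0.34 ± 0.038, with DMSO and Nutlin-3a, by the authors' deposited tables.

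The other 35 genes had no called difference and spread over 6 patterns of siRNA effects by the authors' deposited tables. Called lower at both treatments were 9: CDC25C, NDC80, NUF2, SGO2, ASPM, HMMR, DLGAP5, ANLN and CEP55. Called lower with Nutlin-3a, and not called with DMSO, were 9 others: AURKA, NEK2, BUB1, MAD2L1, AURKB, PRC1, RACGAP1, TOP2A and CDCA2. CKS1B, SKA3 and UBE2S were called lower with DMSO, and CDC25A, SPC25, ESPL1 and ECT2 higher, and none of these 7 was called with Nutlin-3a. These patterns follow the threshold in each table, not a called difference between treatments: by the authors' deposited tables ECT2 was at 0.10 ± 0.039 with DMSO and 0.10 ± 0.045 with Nutlin-3a, and UBE2S at -0.15 ± 0.052 and -0.25 ± 0.12. BUB3 was called higher at both. CDK1, CDC25B, TTK, SPC24, SKA1, SGO1, PTTG1, NUSAP1 and MKI67 were called at neither.

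**Figure D4:**
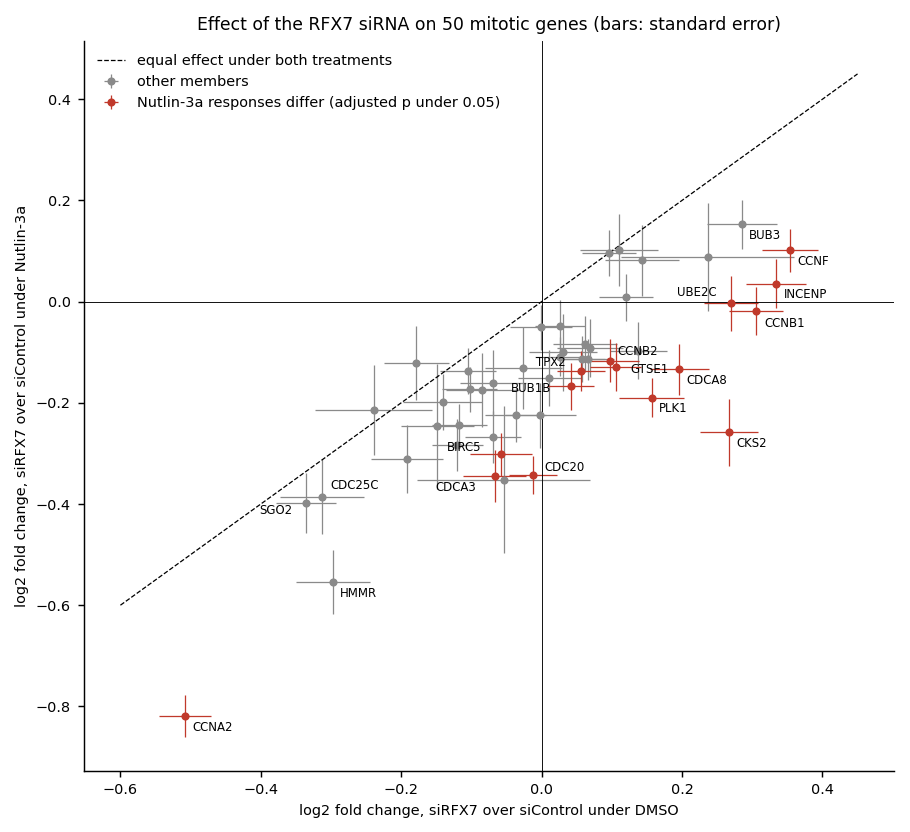
Log2 fold change of the 50 genes with siRFX7 over siControl under DMSO (x axis) and under Nutlin-3a (y axis), with the authors' standard errors as bars and a dashed line of equal effect. All but SKA3 and CKS1B lie below the line, the 15 genes whose Nutlin-3a responses differed are red, and CCNA2 lies at the lower left, at -0.51 and -0.82.

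CCNA2 (ENSG00000145386, chromosome 4, 121816444 to 121823933, minus strand) had levels of 8778 in siControl with DMSO, 4389 in siControl with Nutlin-3a, 6171 in siRFX7 with DMSO and 2485 in siRFX7 with Nutlin-3a. Both siRFX7 groups stood below the siControl group of the same treatment, by the authors' deposited tables at 70.3% of it with DMSO and 56.7% with Nutlin-3a (adjusted p 1.52e-41 and 1.82e-82). Nutlin-3a took CCNA2 to 40.3% of the DMSO level in siRFX7 by the authors' deposited table. Its response differed by -0.31 ± 0.056 (adjusted p 1.16e-05). Its 3′ UTR holds GTATCTA, a heptamer that an earlier scan of these same fold changes had picked among genes lower with siRFX7, so its share is not independent evidence. In GENCODE 29 basic transcripts 7.46% of 19419 coding genes carried it, and 2 of the 50 genes did, CCNA2 and AURKA. Of 1171 genes with the heptamer 43.1% were called lower under DMSO in the authors' deposited table, against 17.3% of 12617 without. That contrast uses the fold changes from which the heptamer was picked, so it is no evidence for a role. The groups were not matched for 3′ UTR length. By the authors' deposited tables AURKA was at -0.069 ± 0.040 with DMSO, not called, and at -0.27 ± 0.051 with Nutlin-3a, called lower. The part of this heptamer in the lower CCNA2 level was not tested. Its site is shown for that reason, with the heptamer in capitals.
CCNA2, chr4:121817496-121817518, minus strand, GENCODE 29 on GRCh38: aaattatgGTATCTAttactttt

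Other genes of mitosis were counted from 5 lists of 55 genes in all. With Nutlin-3a in siControl, 43 of the 55 fell and 2 rose in the authors' deposited table, and in siRFX7 41 fell and 2 rose. Of all genes, 19.6% were called lower in siControl and 20.3% in siRFX7 by the authors' deposited tables. Of genes whose base mean reached 1000, the shares were 41.1% and 42.0% in the authors' deposited tables. All 8 condensin subunits fell in both of the authors' deposited tables, their medians being -0.89 for siControl and -0.94 in siRFX7, a size like that of the 50. All 12 checkpoint and kinetochore partners also fell in both, with a median of -0.44 in siControl in the authors' deposited table. Cohesin and its regulators had a median of -0.37, with 9 of 10 called lower, by the authors' deposited table for siControl. The APC/C list held 15 genes, the core subunits and the co-activator FZR1. Of these, 7 fell and 2 rose, and their median was -0.093 by the authors' deposited table for siControl. That count of falls was near the share of genes whose base mean reached 1000. The co-activator CDC20 and the E2 enzymes UBE2C and UBE2S, given above, were thus at -0.80, -0.78 and -0.91 in the authors' deposited table, all lower than the lowest of those 15, ANAPC1, at -0.47 ± 0.051. Of 10 regulators of mitotic entry, 7 fell in siControl in the authors' deposited table.

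The difference of the responses was called for 2 of these 55 genes, both with a lower response in siRFX7: NCAPH, a condensin subunit (-0.24 ± 0.054, adjusted p 0.00166), and WEE1, the kinase that restrains CDK1 (-0.29 ± 0.074, adjusted p 0.0131). The share of all genes called with a lower response was 0.764%, and 1.75% of those whose mean base mean reached 1000. The difference was below 0 for 31 of the 55, against 50.2% of all genes. By the authors' deposited tables WEE1 was also higher in siRFX7, by 0.69 ± 0.048 with DMSO and 0.40 ± 0.058 with Nutlin-3a.

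Since the 50 genes fell together, their promoters were searched for short motifs. RefSeq promoter windows (GRCh38.p14, 250 bases before to 50 after the gene start) were held for 42 of the 50 genes, in 53 windows, as some genes have several starts. There was no entry for AURKA, BUB3, TTK, BIRC5, UBE2C, TPX2, RACGAP1 and CDCA2. The CHR was searched as TTTGAA or TTCGAA on both strands, and TTCGAA reads the same on both. It was in 36 of the 53 windows (67.9%), against 16.4% of 35116 windows of all genes and 11.8% of 13958 windows of genes whose base mean was 100 or more. A CHR that began within 50 bases of the gene start was in 30 of the 53 windows (56.6%), against 5.01% of all windows. CCAAT, the letters bound by NF-Y, was in 42 of 53 windows (79.2%) against 34.6% of all, and at least 2 matches were in 24 (45.3%) against 10.8%. GGCGG, the letters of the cell cycle-dependent element that can lie beside a CHR, was in 52 of 53, but also in 82.5% of those windows of genes with a base mean of 100 or more. None of these motifs contains another. A match is a match of letters and no measured site, and a window without one lacks only those letters.

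**Figure D5:**
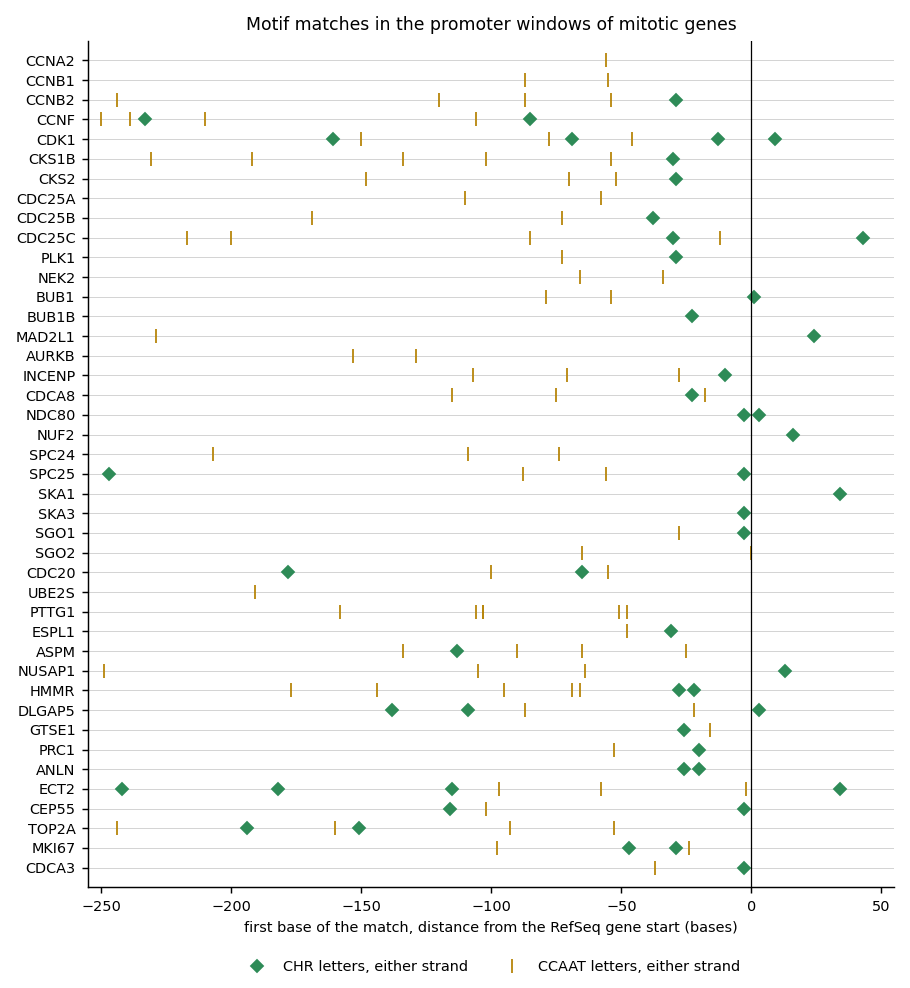
Positions of CHR matches (green diamonds) and CCAAT matches (gold ticks) on either strand in the RefSeq promoter windows of the mitotic genes, in bases from the gene start (0). Rows with several starts are overlaid; 30 of 53 windows have a diamond within 50 bases of the start, and most ticks lie upstream of them.

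Genes with and without these letters had medians close to each other, a difference that was not tested. The 33 genes with a CHR in a window had a median log2 fold change with Nutlin-3a in siControl of -0.88, and the 9 without had -0.93, from the authors' deposited table. Their median differences of the responses were -0.13 and -0.16. Those without were CCNA2, CCNB1, CDC25A, NEK2, AURKB, SPC24, SGO2, UBE2S and PTTG1. Of the 15 genes with a called difference, 10 had a CHR in a window, 2 (CCNA2 and CCNB1) had a window without it and 3 had no entry.

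The sequences around the CHR nearest to the gene start are shown for these 10 genes, because they let the element be compared between genes whose responses differed. They are read 5′ to 3′ on the strand of the gene, from RefSeq on GRCh38.p14, with the CHR letters in capitals; TTCAAA is TTTGAA on the other strand.
CCNB2, chr15:59105105-59105134, plus strand: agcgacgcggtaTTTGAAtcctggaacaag
CCNF, chr16:2429350-2429379, plus strand: gggccgggtgcgTTTGAAaactggggtggg
CKS2, chr9:89311154-89311183, plus strand: cgggctgtcggaTTCAAAtccggatcgttg
PLK1, chr16:23678848-23678877, plus strand: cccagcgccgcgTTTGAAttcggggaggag
BUB1B, chr15:40161034-40161063, plus strand: gggaccgttaaaTTTGAAacttggcggcta
INCENP, chr11:62123989-62124018, plus strand: tgagccttcagtTTTGAAaatcatagtttt
CDCA8, chr1:37692481-37692510, plus strand: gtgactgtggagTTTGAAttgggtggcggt
CDC20, chr1:43358904-43358933, plus strand: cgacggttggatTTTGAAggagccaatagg
GTSE1, chr22:46296832-46296861, plus strand: ctcggagcccttTTCAAAccgaccaatcgg
CDCA3, chr12:6851272-6851301, minus strand: cgtggcgggaagTTTGAAactggtaacttc
Counted from the RefSeq gene start, the capitals begin at -29 in CCNB2, CKS2 and PLK1, at -23 in BUB1B and CDCA8, and at -26 in GTSE1. They begin at -3 in CDCA3 and -10 in INCENP, and farther upstream in CDC20 (-65) and CCNF (-85). GENCODE 29 can place the start elsewhere, so these distances depend on the annotation. The PLK1 window, for example, lies inside the GENCODE 29 bounds given above, which begin at 23677656. CKS2, with the largest difference of the responses, and GTSE1 carry the element in the opposite orientation to the other 8.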

How the data were processed

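Poly(A) RNA of 16 libraries was sequenced in 4 groups of 4, assigned from the sample titles. Per the submitters' processing notes, reads were counted with featureCounts 1.6.5 on hg38 and compared with DESeq2 1.20.0; the aligner and annotation are not given in the sources used here. The 4 files are the authors' deposited tables of 2 groups each. Per the file headers, the base mean is a signal (mean normalised count), and fold changes with their errors are on the log2 scale; whether they were shrunken is not stated. The deposited Wald score equals log2 fold change over SE, and the deposited adjusted p-value is the Benjamini-Hochberg adjustment over the genes of a table. The depth of single libraries is not in these tables.

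Which group is the numerator of a table was read from the signs of RFX7, CDKN1A and MDM2 and from the closure of the 4 tables over 19344 genes. The difference of responses was the difference of the log2 fold changes from tables that share no library, with SE as the root of the summed squares, a two-sided normal p and Benjamini-Hochberg adjustment over 21339 genes (Python 3.11.15, scipy 1.17.1). This step was tested on simulated fold changes, with normal noise of the size of the deposited SEs. Such a test cannot show whether those SEs are too small. No new model was fitted across libraries. Group means were derived from base mean and fold change. All 50 identifiers and symbols matched GENCODE 29.

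Genes named with values were, by rule, the 4 highest and 4 lowest per comparison, every gene with a called difference, and examples from each role. The genes and lists were chosen with earlier results of these data known, and earlier results had already shown the differences of PLK1, CDC20, CCNB1, CCNA2, BIRC5 and CCNB2. Alternatives changed the threshold, a minimum size, the filter on low values, the centring and the errors.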

Additional observations from a re-analysis of the deposited data

Results flagged for a closer look

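The Nutlin-3a response of 15 of the 50 mitotic genes differed between siRFX7 and siControl by the test of the difference itself (two-sided normal test, Benjamini-Hochberg adjusted over all genes). For all 15 the response was the lower in siRFX7, which does not mean a lower level at each treatment. The share of all genes called with a lower response was 0.764%, and 1.75% among genes whose mean base mean reached 1000. Earlier results of these data, known when the genes were chosen, had already shown the differences of PLK1, CDC20, CCNB1, CCNA2, BIRC5 and CCNB2. The count of 15 is therefore not independent evidence. With statistics divided by their robust SD, 8 of the 15 were no longer called. The log2 differences were -0.53 for CKS2, -0.35 for PLK1, -0.33 for CDC20, -0.33 for CDCA8, -0.32 for CCNB1, -0.31 for CCNA2 and -0.30 for INCENP. They were -0.28 for CDCA3, -0.28 for UBE2C, -0.25 for CCNF, -0.25 for BIRC5, -0.24 for GTSE1, -0.22 for CCNB2, -0.21 for BUB1B and -0.20 for TPX2.

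CDKN1A, the gene of the CDK inhibitor p21, moved beside them: it was higher with siRFX7 in the authors' deposited tables by 0.60 ± 0.040 under DMSO and 0.33 ± 0.037 under Nutlin-3a, and its own response differed by -0.26 ± 0.053. The part of CDKN1A in the differences of the mitotic genes was not tested.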

How the results depend on the processing

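All 50 genes stayed called lower with Nutlin-3a in both siRNA groups under every alternative but the size of at least 1, which left 8 in siControl and 34 in siRFX7. The siRFX7 effects were less stable. Under DMSO, 13 genes were lower and 14 higher; an adjusted p under 0.01 left 8 lower, a size of at least 0.25 left 4 lower and 6 higher, errors multiplied by 1.5 left 5 lower and 7 higher, and a size of at least 1 left 0 and 0. Under Nutlin-3a, where 29 were lower and 1 higher, the same settings left 19 lower, then 12 lower and 0 higher, then 13 lower and 0 higher, then 0 and 0. Adjusting only over genes whose base mean reached 100 gave 2 higher under Nutlin-3a, CCNF joining BUB3. Called differences of the responses numbered 10 to 17 under the other settings but went from 15 to 7 with statistics divided by their robust SD; the cause was not tested. Centring on the median gene turned values near 0, of NEK2 under DMSO to -0.0022 and of ESPL1 under Nutlin-3a to -0.0029, neither of them called. It also removed the calls of 2 genes under DMSO and added calls of 2 genes under Nutlin-3a. No paired analysis was possible because the tables hold no single library; leaving out replicates was not run for the same reason.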
